A study of Oryza sativa with 12 samples.

Results

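The Aux/IAA genes are the family of auxin repressors of rice (Oryza sativa), numbered IAA1 to IAA31. They were taken as 31 locus IDs of the RAP naming system, and the names follow the order in which the loci were listed. Of the 31 loci, 29 were read in the deposited files, and 25 of these reached 1 FPKM (a read count scaled to gene length and to the library's total) in at least 3 of 12 libraries. The 25 are described and tested below, among 22017 gene IDs that reached the same level, of 35204 IDs in all. IAA28 and IAA29 were not analysed here. The files carry no gene names. In the RefSeq gene table of assembly ASM3414082v1, 28 of the 31 names stood on the chromosome that the locus ID gives and in the same order along it. IAA22, IAA27 and IAA28 had no such entry.

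Aux/IAA proteins bind auxin response factors (ARFs) and recruit corepressors of the TOPLESS type, which keeps auxin-responsive genes off. Auxin joins an Aux/IAA protein to an F-box receptor of the TIR1/AFB type, the repressor is then degraded, and the ARF is released. Many Aux/IAA genes are themselves switched on by auxin, so that their transcripts form a feedback loop. In rice, members of the family act in root branching, root meristem upkeep and growth under drought or salt.

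RNA-seq was made from total RNA of seeds of an OsMFT1 knockout (osmft1) and of Zhonghua 11, the wild type (WT). OsMFT1 belongs to the MOTHER OF FT AND TFL1 family, known for roles in seed dormancy and germination. Surface-sterilised seeds were set on wet filter paper in dishes with 300 mM NaCl or water, in light and dark periods, and the liquid was renewed daily. The 4 groups were osmft1 in salt, WT in salt, osmft1 in water and WT in water, with 3 libraries each. The labels name neither the mutant allele nor the number of independent lines, the sampling time, the stage of the seedlings or the number of seeds per library. A change in stage, a response to salt and a change in the share of cells that express a gene cannot be told apart in such whole-seed samples. Nor do they say whether replicates are separate seed lots. The p-values below therefore rest on differences among libraries that could be technical replicates.

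The libraries held 14379728 to 15688593 counted reads, recovered from the steps between low FPKM values. OsMFT1 itself, looked up by locus Os06g0498800, had 1 to 8 reads in each of the 12 libraries, too few to check the genotype labels. Summed FPKM of 7 seed storage and late-embryo loci was 3016 to 3723 in osmft1 salt and 3566 to 7533 in WT salt, against 292.2 to 615.4 in osmft1 water and 239.4 to 513 in WT water. Of the 6 tested, 4 rose and 2 fell in osmft1 salt, and 5 rose in WT salt. Of all tested IDs, 20.5% were called as rising and 25.5% as falling in osmft1 salt, and 27.7% and 28.2% in WT salt. For 2 loci of meristem and dividing cells the sums were 85.81 to 100.4 in osmft1 salt and 72.47 to 87.23 in WT salt. In water the sums were 150.8 to 211.5 in osmft1 and 201 to 273.7 in WT. These 2 loci did not move together in salt. Os02g0805200 fell in both genotypes (log2 differences of -0.99 in osmft1 and -1.60 in WT). Os03g0727000 rose in osmft1 (0.44) and was not called in WT (0.15). For 2 germination amylase loci they were 4742 to 6111 in osmft1 salt, 1445 to 3259 in WT salt, 12720 to 14050 in osmft1 water and 3229 to 3455 in WT water. Between the genotypes in water, both amylase loci were higher in osmft1. Of the 6 seed storage and late-embryo loci, 2 were higher and 1 lower, and 1 of the 2 loci of meristem and dividing cells was lower. In salt, 1 amylase locus was higher in osmft1 and none of the others was called. Of all tested IDs, 20% were called higher and 10.4% lower in osmft1 in water, and 4.33% and 1.12% in salt. Their part in the Aux/IAA results was not tested. No library exceeded 0.8106 FPKM over 3 leaf (Rubisco small subunit) loci. On the first principal component of all tested IDs, osmft1 salt library 1 stood at -39.2, closer to the water libraries (49.7 to 85.4) than the other 5 salt libraries (-57.5 to -87.4). On the second component, osmft1 water library 1 stood at -69, further out than osmft1 water libraries 2 and 3 (-39 and -29.9). The counts of called genes and some results of single genes are given with and without osmft1 salt library 1, the others only with it.

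Summed over the 29 loci, Aux/IAA transcripts reached 795.8, 717.8 and 746.6 FPKM in osmft1 salt, 635.6, 667.1 and 701.6 FPKM in WT salt, 744.5, 791.9 and 789.3 FPKM in osmft1 water, and 903.7, 1022 and 1006 FPKM in WT water. The WT water libraries were the highest 3 of the 12, the WT salt libraries the lowest 3, and the osmft1 libraries in salt and in water overlapped between them. The composition of the sum differed between salt and water. IAA1, IAA15 and IAA19 together made up 54.3% ± 2.25 of the family's FPKM in osmft1 salt and 56.1% ± 0.507 in WT salt, against 29.5% ± 1.94 in osmft1 water and 25.3% ± 1.46 in WT water (SD, n = 3 each). IAA21, IAA24, IAA30 and IAA31 together made up 26.8% in osmft1 salt and 25.5% in WT salt, against 40.3% in osmft1 water and 44.6% in WT water.

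**Figure D1:**
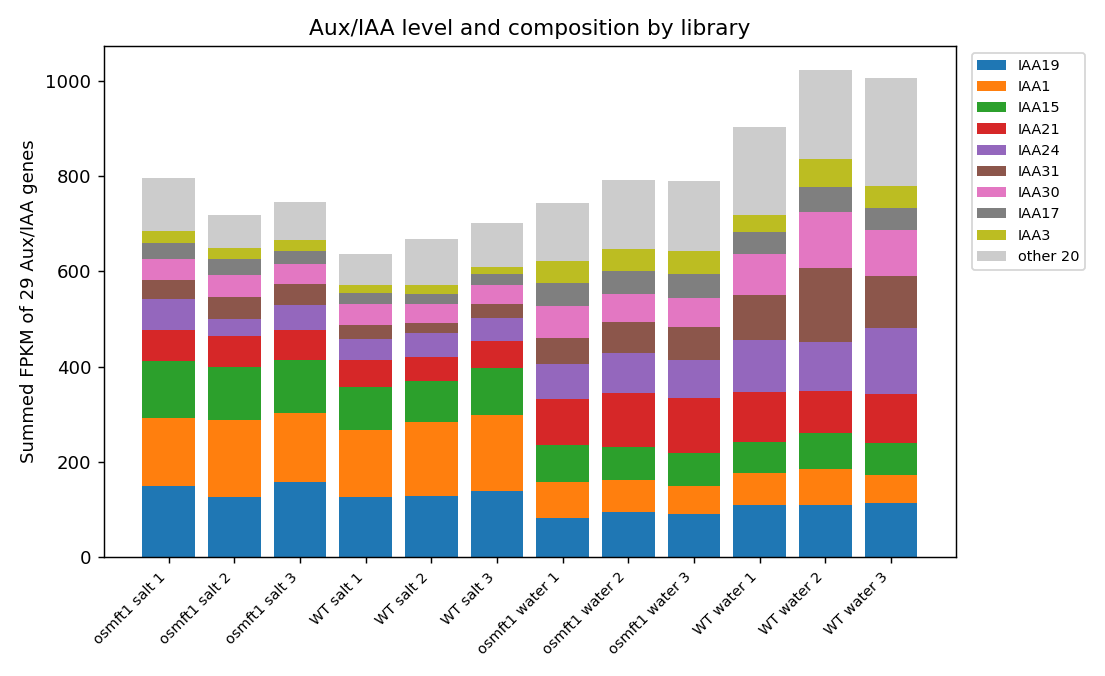
Summed FPKM of 29 Aux/IAA loci (y axis) in each of the 12 libraries (x axis), stacked by the 9 most abundant genes and the other 20 together. IAA1, IAA15 and IAA19 fill at least 51.7% of each salt bar, and the WT water bars, at 903.7 to 1022 FPKM, are the tallest.

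Of the 25 genes, the most abundant in both salt groups were IAA1, IAA19 and IAA15, in that order. In osmft1 salt they averaged 149.6 ± 11.7, 144.7 ± 16.9 and 114.4 ± 4.87 FPKM, and in WT salt 152.0 ± 8.52, 131.0 ± 6.96 and 91.8 ± 6.06 FPKM (SD, n = 3 each). IAA1 and IAA19 in osmft1 salt lay within their spread of each other. In water the order was another. IAA21 (108.4 ± 9.33 FPKM), IAA19 (89.5 ± 6.11) and IAA24 (79.5 ± 5.69) led in osmft1, and IAA31 (119.5 ± 32.0), IAA24 (116.4 ± 19.8), IAA19 (111.0 ± 3.03), IAA30 (100.5 ± 16.1) and IAA21 (99.6 ± 9.13) led in WT, where each of these 5 lay within the spread of its neighbour in that order. The 9 most abundant genes over all libraries (IAA19, IAA1, IAA15, IAA21, IAA24, IAA31, IAA30, IAA17 and IAA3) held 88.5% of the family's FPKM in osmft1 salt, 87.5% in WT salt, 82.1% in osmft1 water and 79.6% in WT water.

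More Aux/IAA genes fell than rose in salt, in both genotypes. In osmft1, 5 genes rose in salt, 14 fell and 6 did not pass the threshold (adjusted p under 0.05, limma on log2(FPKM + 1)), where 20.5% of all tested IDs rose and 25.5% fell (46% in either direction). In WT, 3 rose, 18 fell and 4 did not pass, where 27.7% of all tested IDs rose and 28.2% fell (55.9%). The median log2 difference of the 25 genes was -0.53 in osmft1 and -1.24 in WT, beside -0.11 and 0.04 over all tested IDs. IAA2 and IAA8 entered the 25 through water libraries alone (5 and 3 libraries at 1 FPKM), so their differences were partly set by the selection. IAA6, IAA14 and IAA23 reached 1 FPKM in 2 salt libraries each, and in 6, 6 and 5 water libraries. They too passed the level of 3 libraries only with water libraries, so the same limit holds for them. All of these genes are among the 18 falls in WT. Called in both genotypes were 3 rises (IAA1, IAA9, IAA15) and 14 falls (IAA3, IAA6, IAA7, IAA10, IAA11, IAA12, IAA13, IAA14, IAA17, IAA18, IAA21, IAA24, IAA30, IAA31). None was called in opposite directions. Without overlap, 6 of the 25 genes lay higher and 15 lower in salt in osmft1, where 24.6% and 29.8% of all tested IDs did (54.4% in either direction). In WT, 4 lay higher and 18 lower, where 32.8% and 31.1% did (63.8%).

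**Figure D2:**
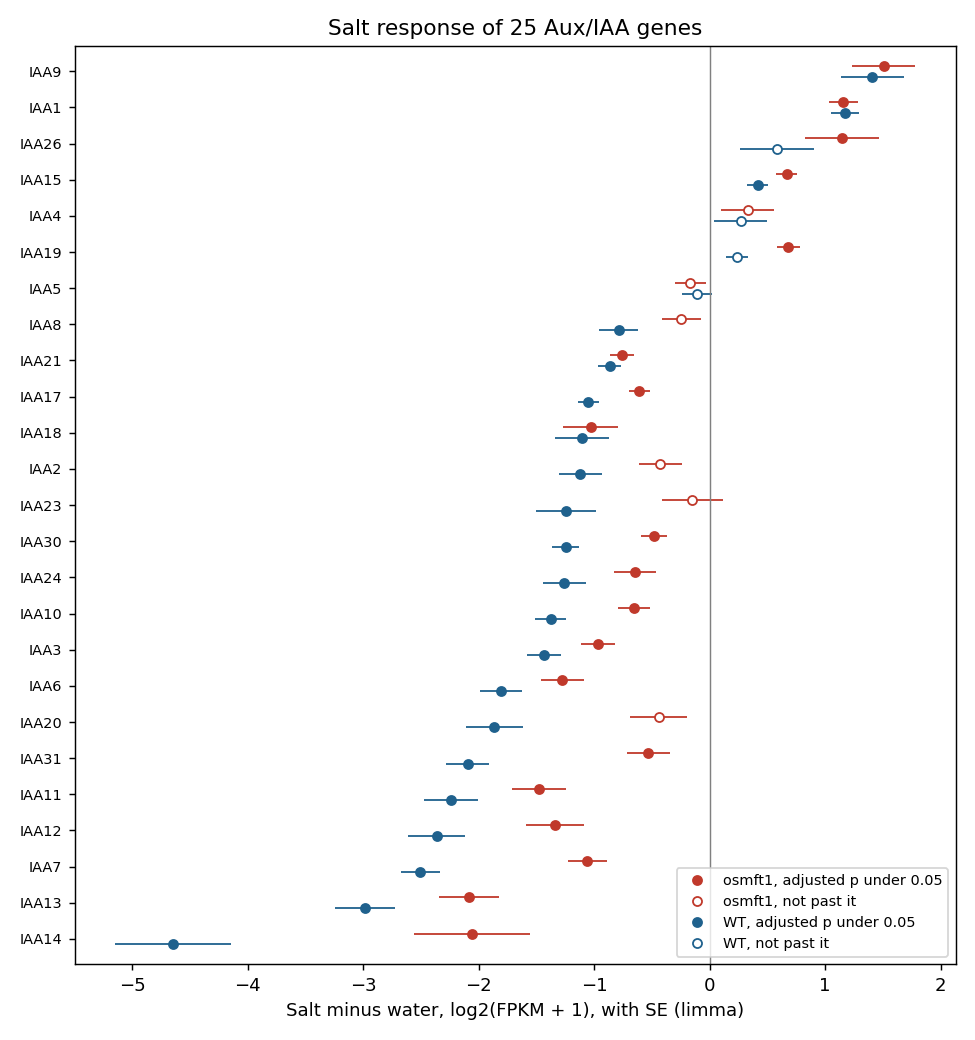
Log2 difference of salt minus water, log2(FPKM + 1) scale (x axis), for 25 Aux/IAA genes (y axis), with the standard error as a bar, in osmft1 (red, upper point) and WT (blue, lower point). Filled points passed an adjusted p under 0.05 in limma. IAA14 is lowest in WT at -4.65, and IAA9 is highest at 1.51 in osmft1 and 1.41 in WT.

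IAA1 (Os01g0178500), which acts in auxin and brassinosteroid responses in rice, was over 2 times as abundant in salt as in water in both genotypes. In osmft1 it had 141.6, 163.0 and 144.2 FPKM in salt, against 75.9, 67.9 and 56.9 FPKM in water. In WT it had 142.5, 154.2 and 159.1 FPKM in salt, against 67.3, 75.8 and 58.4 FPKM in water. Every salt library lay above every water library, and within a treatment the genotypes overlapped. The log2 difference was 1.16 ± 0.13 (SE) in osmft1 and 1.17 ± 0.13 in WT (limma adjusted p = 3.1e-05 and 1.36e-05). Salt over water was 2.24 in osmft1 and 2.26 in WT as a ratio of mean FPKM.

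IAA15 (Os05g0178600) had 120.0, 111.2 and 111.9 FPKM in osmft1 salt, against 76.3, 68.6 and 70.3 FPKM in osmft1 water. In WT it had 89.5, 87.2 and 98.6 FPKM in salt, against 64.3, 75.3 and 66.1 FPKM in water. Salt libraries lay above water libraries in both genotypes, and osmft1 salt lay above WT salt with no overlap. The rise was 0.67 ± 0.09 in osmft1 (limma adjusted p = 0.000157) and 0.42 ± 0.09 in WT (adjusted p = 0.00225). The gap between the salt groups, 0.32 ± 0.09, did not pass the threshold (adjusted p = 0.0695).

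IAA19 (Os05g0559400) had 150.1, 125.7 and 158.3 FPKM in osmft1 salt, 125.2, 129.0 and 138.7 FPKM in WT salt, 82.7, 94.5 and 91.5 FPKM in osmft1 water and 109.6, 108.9 and 114.5 FPKM in WT water. Salt and water libraries did not overlap in either genotype, while osmft1 water lay below WT water. The rise in salt was 0.68 ± 0.10 in osmft1 (limma adjusted p = 0.000231) and 0.24 ± 0.10 in WT, where it missed the threshold (adjusted p = 0.0612). The difference between these responses, 0.45 ± 0.14, also missed it (adjusted p = 0.0555).

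Of the 3 genes that rose in both genotypes, IAA9 (Os02g0805100) had the largest ratio of mean FPKM in salt over water, 3.20 in osmft1 and 2.88 in WT. Its values were 29.3, 15.8 and 21.3 FPKM in osmft1 salt, against 6.54, 7.51 and 6.68 FPKM in osmft1 water. In WT they were 21.5, 44.7 and 40.6 FPKM in salt, against 15.6, 10.6 and 10.8 FPKM in water. The salt libraries of each genotype spread widely but stayed above its water libraries. The log2 difference was 1.51 ± 0.27 in osmft1 and 1.41 ± 0.27 in WT (limma adjusted p = 0.000961 and 0.00099). IAA26, at 2.26 to 4.22 FPKM in osmft1 salt and 0.899 to 1.10 FPKM in osmft1 water, was called higher in osmft1 alone (1.14 ± 0.32, adjusted p = 0.0125). In WT it had 1.23 to 4.64 FPKM in salt and 1.10 to 2.21 FPKM in water, and its responses in osmft1 and WT differed by 0.56 ± 0.45 (adjusted p = 0.406).

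In WT, IAA14 (Os03g0797800) had the largest fall in salt of the 25 genes, and in osmft1 its fall was close to that of IAA13. In WT it had 0.245, 0.119 and 0.243 FPKM in salt, 4, 2 and 4 reads, against 23.9, 24.1 and 42.4 FPKM in water, 424, 416 and 727 reads. In osmft1 it had 6.80, 0.246 and 1.47 FPKM in salt, 114, 4 and 24 reads, against 9.60, 9.76 and 14.2 FPKM in water, 164, 167 and 246 reads. Salt and water libraries did not overlap in either genotype, and the osmft1 salt libraries were the most scattered group. Pooled over libraries and set against the totals, reads in WT salt were 149 times fewer than in WT water (95% Poisson-based interval 80.9 to 312, counting error only). In osmft1 salt they were 3.89 times fewer than in osmft1 water (3.23 to 4.70). The log2 difference was -2.06 ± 0.50 in osmft1 (limma adjusted p = 0.00602) and -4.65 ± 0.50 in WT (adjusted p = 1.53e-05). The pseudocount of 1 compresses the WT value, since the salt level lies under it. Without osmft1 salt library 1, which holds most of the osmft1 salt reads, the fall in osmft1 was -2.77.

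IAA13 and IAA11, which act in lateral root formation in rice, and IAA12 also fell in both genotypes. IAA13 (Os03g0742900) had 5.03, 1.61 and 2.55 FPKM in osmft1 salt, against 12.5, 17.8 and 15.7 FPKM in osmft1 water, and 1.36, 1.5 and 2.00 FPKM in WT salt, against 19.1, 17.2 and 22.9 FPKM in WT water. Salt and water were apart in both genotypes, and the salt groups overlapped. Its log2 difference was -2.08 ± 0.26 in osmft1 (limma adjusted p = 8.14e-05) and -2.98 ± 0.26 in WT (adjusted p = 3.37e-06).

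IAA11 (Os03g0633500) had 9.51, 4.63 and 5.24 FPKM in osmft1 salt, against 13.7, 22.8 and 21.7 FPKM in osmft1 water, and 3.47, 3.44 and 4.07 FPKM in WT salt, against 19.7, 20.0 and 23.3 FPKM in WT water. Every osmft1 salt library lay above every WT salt library, but the gap of 0.63 ± 0.23 did not pass the threshold (limma adjusted p = 0.149). The log2 difference of salt minus water was -1.48 ± 0.23 in osmft1 (limma adjusted p = 0.000411) and -2.24 ± 0.23 in WT (adjusted p = 1.22e-05). IAA12 (Os03g0633800) is the next ID after IAA11 on chromosome 3, with 0 IDs between them. It had 8.37, 3.94 and 4.87 FPKM in osmft1 salt, against 15.1, 18.2 and 13.3 FPKM in osmft1 water, and 2.53, 2.89 and 5.14 FPKM in WT salt, against 20.3, 23.0 and 21.5 FPKM in WT water. Its salt groups overlapped, and its water libraries were higher in WT. That difference, -0.46 ± 0.25 for osmft1 minus WT, did not pass the threshold (limma adjusted p = 0.177). The log2 difference was -1.34 ± 0.25 in osmft1 (limma adjusted p = 0.00114) and -2.36 ± 0.25 in WT (adjusted p = 1.24e-05).

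IAA7 (Os02g0228900) differed between the genotypes in salt. It had 7.61, 5.93 and 8.45 FPKM in osmft1 salt and 2.11, 2.34 and 1.90 FPKM in WT salt, against 12.3, 18.6 and 18.5 FPKM in osmft1 water and 15.5, 17.1 and 17.5 FPKM in WT water. The salt groups did not overlap with each other or with water, while the water groups overlapped. The fall in salt was -1.06 ± 0.17 in osmft1 (limma adjusted p = 0.000403) and -2.50 ± 0.17 in WT (adjusted p = 7.13e-07). In salt, osmft1 exceeded WT by 1.41 ± 0.17 (adjusted p = 0.00138), a ratio of mean FPKM of 3.46, and in water the difference was -0.04 ± 0.17 (adjusted p = 0.886).

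IAA31 and IAA30 are neighbouring IDs on chromosome 12, with 0 IDs between them. IAA31 (Os12g0601400) had 38.7, 45.3 and 44.5 FPKM in osmft1 salt, 30.6, 20.9 and 29.2 FPKM in WT salt, 54.5, 64.1 and 69.0 FPKM in osmft1 water and 94.6, 155.6 and 108.3 FPKM in WT water. The 4 groups did not overlap, with WT at both ends and osmft1 between. The fall in salt was -0.53 ± 0.19 in osmft1 (limma adjusted p = 0.0371) and -2.10 ± 0.19 in WT (adjusted p = 4.11e-06). The call in osmft1 was lost in 8 of 21 alternatives (adjusted p up to 0.111), among them leaving out any osmft1 salt library or osmft1 water library 2 or 3. IAA30 (Os12g0601300) had 44.4, 46.8 and 41.4 FPKM in osmft1 salt, 44.4, 39.7 and 40.4 FPKM in WT salt, 66.1, 59.5 and 60.5 FPKM in osmft1 water and 86.9, 118.3 and 96.4 FPKM in WT water. Its salt groups overlapped and its WT water libraries were the highest. It fell by 0.48 ± 0.11 on the log2 scale in osmft1 (limma adjusted p = 0.00518) and by 1.25 ± 0.11 in WT (adjusted p = 4.78e-06).

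The 18 genes that fell in WT salt also included IAA23, which acts in the root quiescent centre, and IAA18, which raised salt and drought tolerance when overexpressed in rice. IAA18 had 2.18 to 4.15 FPKM in osmft1 salt and 2.77 to 5.44 FPKM in WT salt, against 6.42 to 7.53 FPKM in osmft1 water and 7.03 to 9.81 FPKM in WT water, and its falls were -1.03 in osmft1 and -1.10 in WT. IAA23 had 0.578 to 1.995 FPKM in osmft1 salt and 0.358 to 0.938 FPKM in WT salt, against 0.853 to 1.88 FPKM in osmft1 water and 2.35 to 3.43 FPKM in WT water. The osmft1 groups of IAA23 overlapped and the WT groups did not. IAA21 fell by 0.76 in osmft1 and 0.87 in WT on the log2 scale, to 61.4 to 66.0 FPKM in osmft1 salt and 49.1 to 56.9 FPKM in WT salt. IAA4 and IAA5 were called in neither genotype. IAA5 stayed at 12.3 to 17.1 FPKM over all 12 libraries.

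**Figure D3:**
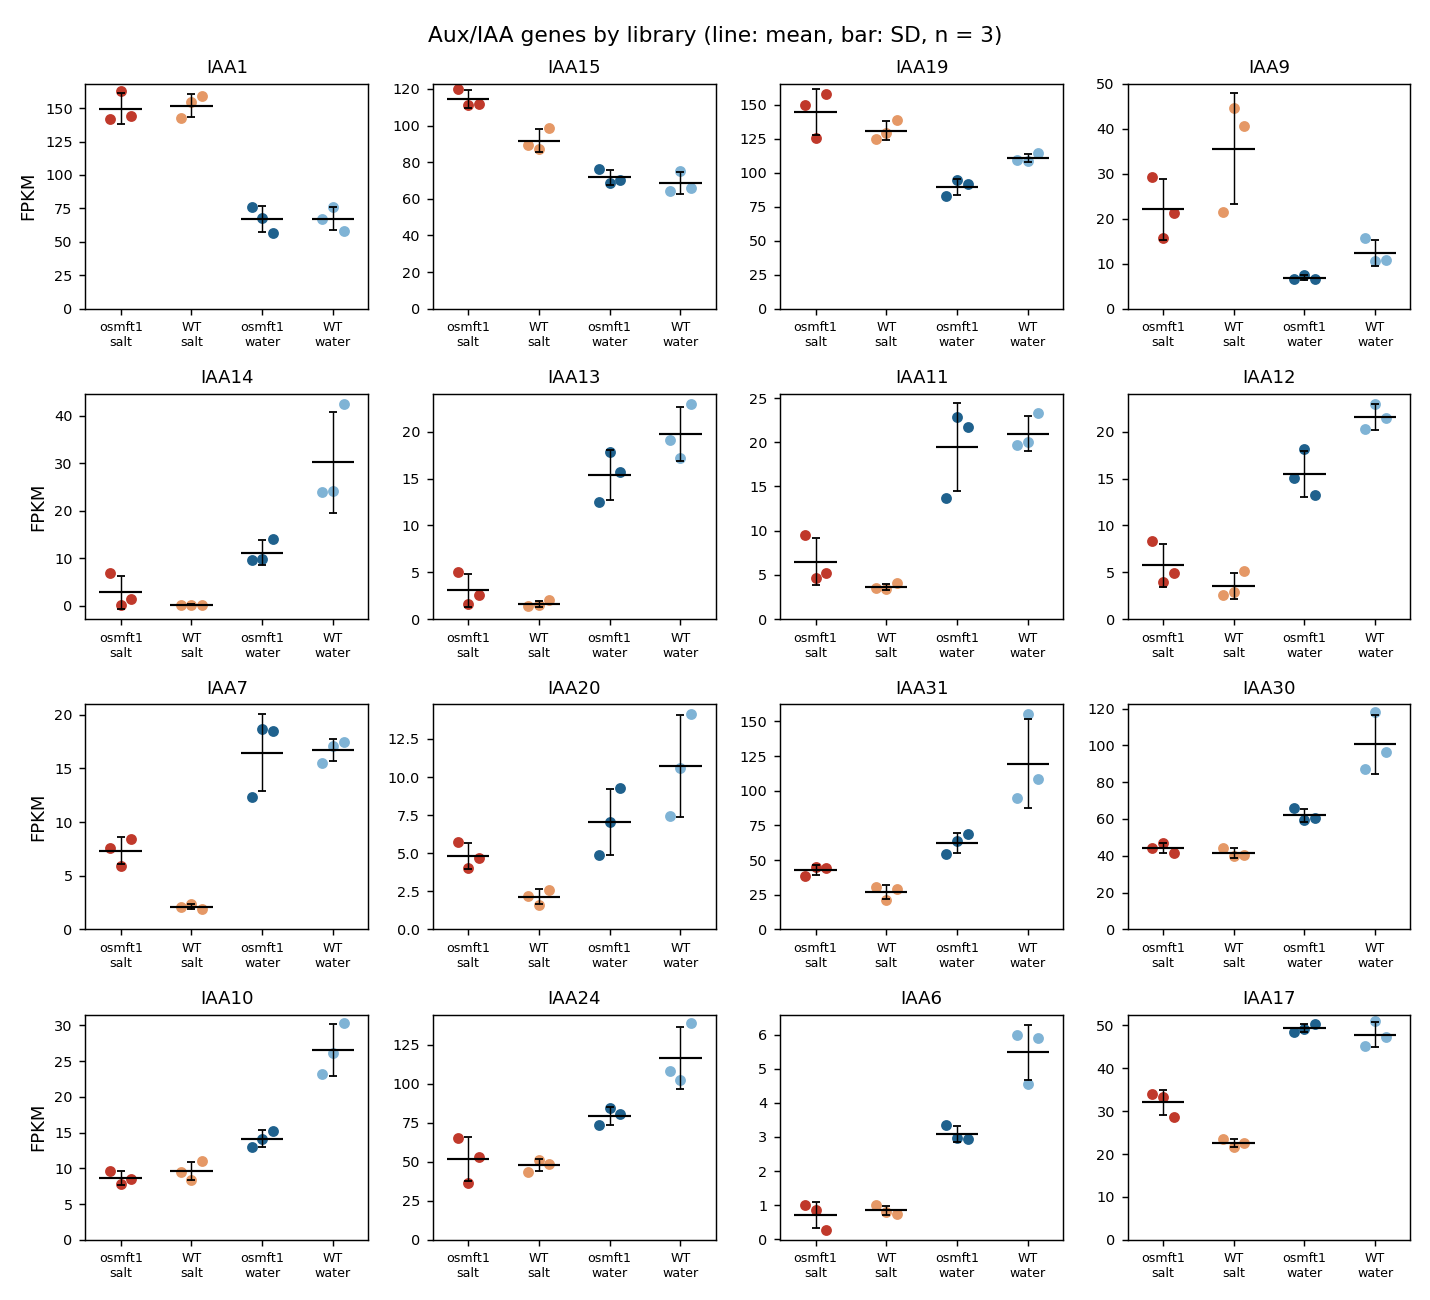
FPKM (y axes, a scale for each panel) of 16 Aux/IAA genes in osmft1 salt, WT salt, osmft1 water and WT water (x axes). Points are libraries, the line is the mean and the bar the SD (n = 3). IAA7 is higher in osmft1 salt (5.93 to 8.45 FPKM) than in WT salt (1.90 to 2.34 FPKM), and IAA10 is lower in osmft1 water (13.0 to 15.3 FPKM) than in WT water (23.1 to 30.4 FPKM).

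In water, the genotypes differed in 6 Aux/IAA genes, all lower in osmft1: IAA6, IAA10, IAA19, IAA24, IAA30 and IAA31. No Aux/IAA gene passed as higher, where 20% of all tested IDs were called higher and 10.4% lower (30.4% in either direction). The median log2 difference of the 25 genes was -0.35, beside 0.11 over all tested IDs. Scaling the libraries by median ratios moved the all-ID median to -0.05 and the share of higher calls from 65.8% to 43.7% of all calls. Under that scaling 10 Aux/IAA genes were lower and 0 higher, where 17.4% of IDs were lower. Without overlap, 11 of the 25 genes lay lower in osmft1 and 0 higher, where 17.2% and 30.8% of all tested IDs did (48% in either direction).

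IAA31 showed the largest of these differences, -0.90 ± 0.19 (limma adjusted p = 0.00649), a ratio of mean FPKM of 0.523, from the values given above. IAA10 (Os02g0817600), a target of a rice dwarf virus protein, had 13.0, 14.2 and 15.3 FPKM in osmft1 water, against 23.1, 26.2 and 30.3 FPKM in WT water. The groups did not overlap, and the difference was -0.86 ± 0.14 (limma adjusted p = 0.002). In salt IAA10 had 9.63, 7.76 and 8.51 FPKM in osmft1 and 9.47, 8.38 and 11.0 FPKM in WT, and the groups overlapped. For IAA30 the difference in water was -0.68 ± 0.11 (limma adjusted p = 0.00274). IAA31, IAA10 and IAA30 kept the call in all 21 alternatives.

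IAA6 (Os01g0741900), which acts in drought tolerance and tillering in rice, had 3.35, 2.96 and 2.94 FPKM in osmft1 water, against 5.996, 4.56 and 5.90 FPKM in WT water. It had 1.005, 0.849 and 0.281 FPKM in osmft1 salt, against 1.001, 0.790 and 0.744 FPKM in WT salt. The water groups did not overlap and the salt groups did. In water the log2 difference was -0.66 ± 0.19 (limma adjusted p = 0.0211). It missed the threshold in 4 of 21 alternatives, with pseudocount 0.1 (adjusted p = 0.105) and without osmft1 water library 2 (adjusted p = 0.058), WT water library 1 (0.0556) or WT water library 3 (0.0738). Its fall in salt was -1.28 ± 0.19 in osmft1 and -1.81 ± 0.19 in WT (limma adjusted p = 0.000229 and 1.04e-05).

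IAA24 (Os07g0182400) had 73.3, 84.5 and 80.6 FPKM in osmft1 water, against 108.0, 102.3 and 139.1 FPKM in WT water, with no overlap. In salt it had 65.0, 36.7 and 53.2 FPKM in osmft1 and 43.5, 51.1 and 48.8 FPKM in WT, and these overlapped. The difference in water was -0.54 ± 0.18 (limma adjusted p = 0.0455). It missed the threshold in 14 of 21 alternatives (adjusted p up to 0.165), among them the replicate block (0.0526) and leaving out any water or WT salt library or osmft1 salt library 3. Its fall in salt was -0.65 ± 0.18 in osmft1 (adjusted p = 0.0131; -0.42 without osmft1 salt library 2, and adjusted p = 0.0527 with median-ratio scaling) and -1.26 ± 0.18 in WT (adjusted p = 0.000131). IAA19 differed by -0.31 ± 0.10 (limma adjusted p = 0.0356) and missed it in 8 of 21 (adjusted p up to 0.152), among them leaving out any of the 6 water libraries.

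In salt, 2 Aux/IAA genes were higher in osmft1 (IAA7 and IAA17) and none was lower, where 4.33% of all tested IDs were higher and 1.12% lower (5.45% in either direction). Median-ratio scaling moved the share of higher calls over all tested IDs from 79.5% to 57.6%, and upper-quartile scaling to 62.3%. The median log2 difference of the 25 genes was 0.32, beside 0.07 over all tested IDs. Without overlap, 11 of the 25 lay higher in osmft1 (IAA3, IAA4, IAA7, IAA8, IAA11, IAA14, IAA15, IAA17, IAA20, IAA21 and IAA31) and 0 lower, where 18.7% and 6.43% of all tested IDs did (25.1% in either direction).

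IAA17 (Os05g0230700) had 34.1, 33.4 and 28.7 FPKM in osmft1 salt, against 23.5, 21.6 and 22.6 FPKM in WT salt. In water it had 48.4, 49.2 and 50.3 FPKM in osmft1 and 45.2, 51.0 and 47.2 FPKM in WT. The salt groups did not overlap and the water groups did. In salt the log2 difference was 0.49 ± 0.09 (limma adjusted p = 0.0136). It missed the threshold in 4 of 21 alternatives: in the fit of 6 libraries (adjusted p = 0.0762), with both osmft1 libraries numbered 1 left out (0.0624), with median-ratio scaling (0.0543) and without osmft1 salt library 1 (0.0505). IAA7 kept its call in all 21 alternatives, with log2 differences of 1.31 to 1.77.

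The salt response differed between the genotypes in 7 Aux/IAA genes, in each with a higher value in osmft1, where 6.92% of all tested IDs had a positive and 6.12% a negative called difference (13% in all). Under upper-quartile scaling 40.5% of the all-ID calls were positive, beside 53.1% as reported. The 7 genes were IAA7 (1.45 ± 0.24), IAA31 (1.57 ± 0.27), IAA30 (0.77 ± 0.16), IAA20 (1.43 ± 0.35), IAA10 (0.72 ± 0.19), IAA14 (2.59 ± 0.71) and IAA17 (0.44 ± 0.13), as log2 differences of responses with SE. All 7 fell in WT salt, and the values mean a smaller fall in osmft1. IAA20 (Os06g0166500), which raised drought and salt tolerance when overexpressed in rice, had 5.74, 4.05 and 4.72 FPKM in osmft1 salt and 2.22, 1.62 and 2.61 FPKM in WT salt, against 4.90, 7.02 and 9.25 FPKM in osmft1 water and 7.42, 10.6 and 14.1 FPKM in WT water. Salt and water overlapped in osmft1 and not in WT. The fall of IAA20 was -0.44 ± 0.25 in osmft1 (limma adjusted p = 0.165) and -1.87 ± 0.25 in WT (adjusted p = 6.38e-05).

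The overlap of libraries between the genotypes varied among these genes. Overlap alone does not show whether salt or water gave rise to the difference of responses. IAA7 and IAA17 were apart in salt and overlapped in water. IAA10 and IAA30 were apart in water and overlapped in salt. IAA31 was apart in both, higher in osmft1 salt and lower in osmft1 water. Its difference in salt missed the threshold (0.67 ± 0.19, limma adjusted p = 0.0629). The IAA14 libraries lay lower in osmft1 water without overlap, but the difference missed the threshold (-1.33 ± 0.50, limma adjusted p = 0.0655). In salt its difference was 1.26 ± 0.50 (adjusted p = 0.175), and osmft1 library 2 and WT library 1 had 4 reads each (0.246 and 0.245 FPKM). IAA20 was apart in salt, and in water its libraries overlapped. Neither of its differences passed the threshold, at 0.89 ± 0.25 in salt (limma adjusted p = 0.0594) and -0.54 ± 0.25 in water (adjusted p = 0.118). Only IAA7 (limma adjusted p = 0.00932) and IAA31 (adjusted p = 0.011) kept the call in all 20 alternatives run. IAA30 (adjusted p = 0.0201) lost it in 1, with both osmft1 libraries numbered 1 left out. IAA14 (adjusted p = 0.0389), IAA10 (0.0352), IAA20 (0.0286) and IAA17 (0.0484) lost it in 11, 11, 9 and 15 of 20 (adjusted p up to 0.0891, 0.153, 0.12 and 0.182). Leaving out osmft1 salt library 3, WT salt library 2, osmft1 water library 1 or 2, or WT water library 2 or 3 ended the call for each of these 4. So did WT salt library 1 for IAA10, IAA14 and IAA17, WT salt library 3 for IAA14 and IAA17, and osmft1 salt library 2 or osmft1 water library 3 for IAA17.

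The difference of responses was positive in 23 of the 25 genes and negative in IAA1 and IAA5, with a median of 0.56, beside 48% positive and a median of -0.03 over all tested IDs. For the 18 genes that fell in WT salt it was positive in 18, with a median of 0.74. Among all 6203 tested IDs that fell in WT salt it was positive in 84.6%, with a median of 0.46. The response in WT enters both the choice of these IDs and the difference, so part of this share follows from the choice.

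**Figure D4:**
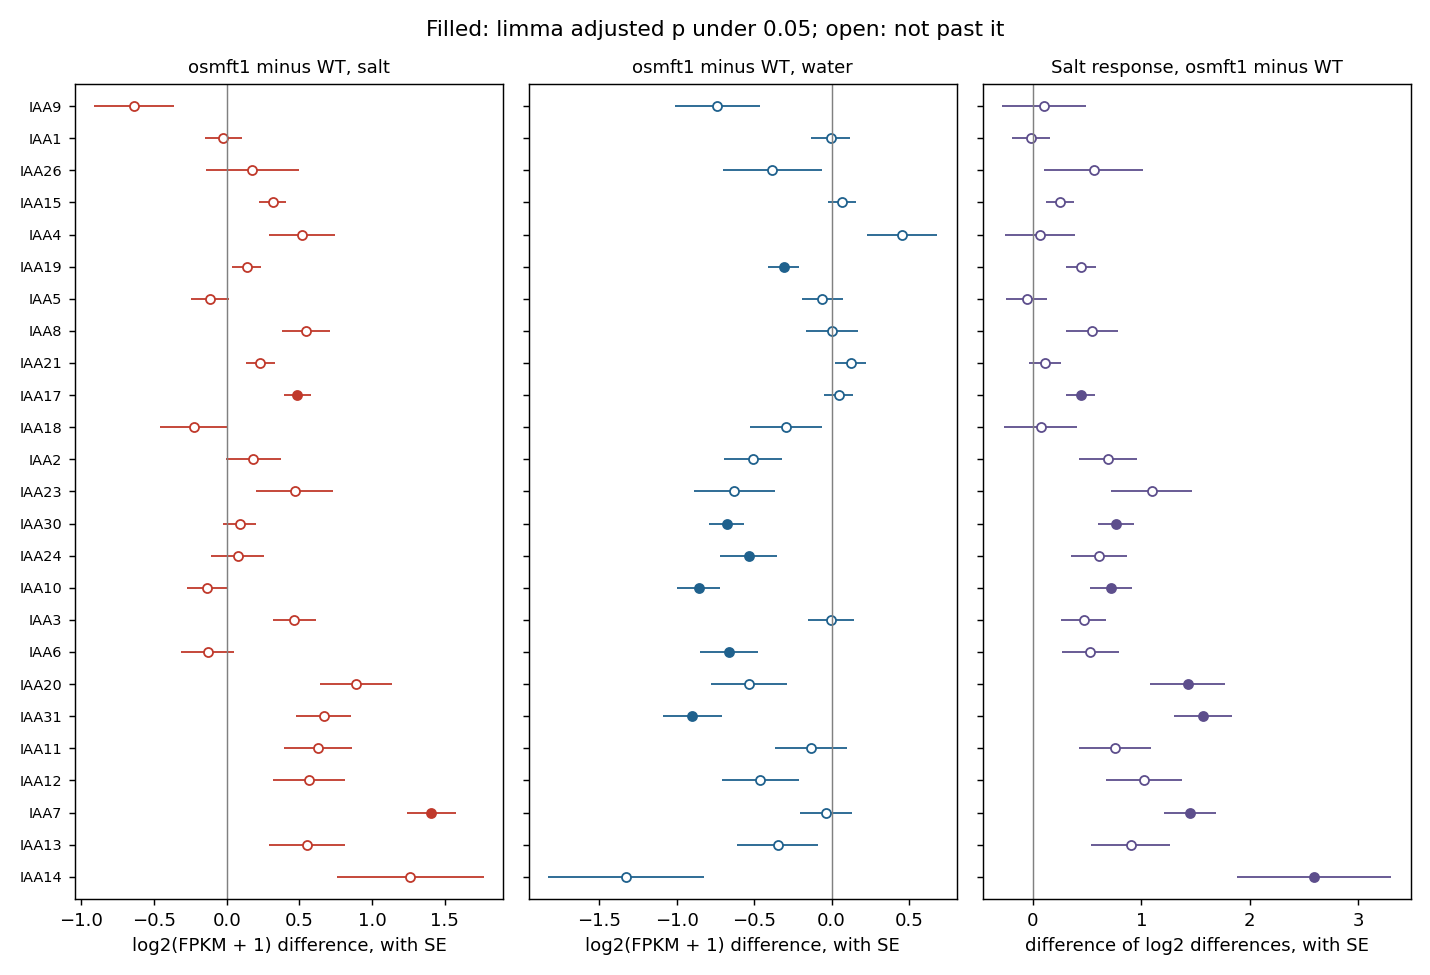
Log2 differences, log2(FPKM + 1) scale (x axes), for 25 Aux/IAA genes (y axis), with SE: osmft1 minus WT in salt (left), osmft1 minus WT in water (middle) and the salt response in osmft1 minus that in WT (right). Filled points passed an adjusted p under 0.05 in limma. In salt 2 points are filled, both above 0, in water 6, all below 0, and on the right 7, all above 0.

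Of the 18 genes that fell in WT salt, osmft1 salt library 1 was the highest of its group in 13 and the highest of the 6 salt libraries in 11. Among the 6203 tested IDs that fell in WT salt it was so in 48.9% and 40.9%, and among all tested IDs in 30.7% and 19.6%. Every osmft1 salt library lay above every WT salt library in 9 of them (IAA3, IAA7, IAA8, IAA11, IAA14, IAA17, IAA20, IAA21 and IAA31), against 37.3% of the 6203 IDs and 18.7% of all tested IDs. IAA14 is counted there on 4 reads against 4. The 18 genes were chosen for low values in WT salt, which favours such an order. Without osmft1 salt library 1, the count of called genes was 1 in place of 2 for osmft1 against WT in salt, 8 in place of 6 for osmft1 against WT in water, 18 in place of 19 for salt in osmft1, 21 as before for salt in WT, and 4 in place of 7 for the difference of responses. IAA7, IAA14, IAA30 and IAA31 kept that last call, with IAA14 at 1.87 (limma adjusted p = 0.0369). IAA10 (adjusted p = 0.0777), IAA17 (0.104) and IAA20 (0.062) lost it.

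Of the 4 genes read but not tested, IAA27 reached 1.21 FPKM in 1 WT water library and stayed at 0.162 to 0.664 FPKM in the osmft1 libraries and at 0.0676 to 0.773 FPKM in the other WT libraries. IAA25 had at most 0.761 FPKM, IAA16 at most 0.505 FPKM and IAA22 at most 2 reads in any library. Just inside the level were IAA8, at 1 FPKM or more in 3 libraries and at most 1.33 FPKM, and IAA2, in 5 libraries and at most 2.60 FPKM. Other genes of the RefSeq table overlap IAA4, IAA5, IAA13, IAA18 and IAA24. The strand setting of the counting is not given in the sources used here, so reads of an overlapping gene cannot be told apart from theirs.

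The rest of the auxin pathway was read from 65 loci written down from published knowledge, which neither the files nor the gene table pairs with names. Of these, 63 were read and 41 tested. In osmft1, 6 of the 41 rose in salt and 14 fell, and in WT 13 rose and 17 fell. In water 14 were higher and 4 lower in osmft1 than in WT, and in salt 2 were higher and 0 lower. The difference of responses was called positive in 4 and negative in 5. The shares of all tested IDs given above apply to these counts and to the counts of each family below. In either direction they were 46% for salt in osmft1 and 55.9% for salt in WT. Between the genotypes they were 30.4% in water and 5.45% in salt, and for the difference of responses 13%. The calls of these pathway loci were not examined under the alternatives. Over all tested IDs, median-ratio scaling lowered the share called higher in osmft1 in water from 20% to 13.5%. Calls in water also fell in number with both osmft1 libraries numbered 1 left out.

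Among the receptors, 2 of 3 tested TIR1/AFB loci rose in salt in osmft1 and 3 of 3 in WT. Os05g0150500 had 65.5, 54.3 and 67.1 FPKM in osmft1 salt, 68.8, 70.8 and 62.0 FPKM in WT salt, 31.4, 32.6 and 34.0 FPKM in osmft1 water and 41.5, 35.5 and 39.2 FPKM in WT water. It rose by 0.91 ± 0.11 in osmft1 and 0.78 ± 0.11 in WT on the log2 scale (limma adjusted p = 5.06e-05 and 7.55e-05). None of the receptor loci was called between the genotypes.

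All 3 TOPLESS-type corepressor loci were higher in osmft1 than in WT in water and fell in osmft1 salt. In WT salt 2 rose and 1 fell. In osmft1 water, library 1 was the highest of its group at all 3 loci. Libraries 2 and 3 also lay above every WT water library. Os03g0254700 had 27.5, 43.8 and 24.9 FPKM in osmft1 salt and 31.9, 34.5 and 35.2 FPKM in WT salt, against 73.7, 49.4 and 47.0 FPKM in osmft1 water and 26.5, 22.2 and 13.2 FPKM in WT water. Water libraries did not overlap between genotypes and salt libraries did. The difference in water was 1.44 ± 0.26 (limma adjusted p = 0.00381). The ARF loci, the partners of the Aux/IAA proteins, had 22 tested members, of which 10 were higher and 1 lower in osmft1 water than in WT water. Some of these calls lay near the threshold, such as Os01g0670800 (limma adjusted p = 0.0497). In salt, 1 rose and 7 fell in osmft1, and 6 rose and 8 fell in WT.

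Of 6 tested YUCCA and TAR loci, which make auxin, none rose in salt, 3 fell in osmft1 and 5 in WT. Os01g0169800 had 22.2, 12.2 and 16.5 FPKM in osmft1 salt and 6.27, 5.34 and 8.03 FPKM in WT salt, against 29.7, 29.3 and 39.7 FPKM in osmft1 water and 48.7, 54.6 and 66.2 FPKM in WT water. Its 4 groups did not overlap, with WT at both ends, as for IAA31. The difference of its responses was 1.99 ± 0.30 (limma adjusted p = 0.00732). Some members of the GH3 family join auxin to amino acids, and which of the loci listed here do so was not tested. Of 5 tested GH3 loci, 3 rose in osmft1 salt, and 2 rose and 1 fell in WT salt. Os01g0764800 was higher in osmft1 salt (36.5, 38.8 and 42.6 FPKM) than in WT salt (16.3, 17.7 and 27.1 FPKM), by 0.95 ± 0.18 (limma adjusted p = 0.0118). Of 13 PIN and AUX1 transport loci only 2 were tested. Os01g0856500 had 8.96, 5.67 and 7.47 FPKM in osmft1 salt and 5.74, 5.23 and 8.22 FPKM in WT salt, against 23.3, 21.2 and 23.9 FPKM in osmft1 water and 29.6, 37.4 and 42.2 FPKM in WT water. It fell by 1.53 ± 0.19 in osmft1 and 2.35 ± 0.19 in WT on the log2 scale (limma adjusted p = 7.58e-05 and 2.04e-06).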

How the data were processed

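RNA-seq of rice seeds was analysed from 12 deposited tables, 1 per library, with 1 value for each of 35204 gene IDs. The tools in the submitters' processing notes are Bowtie2 2.2.3, HTSeq 0.6.0 and HISAT2 2.1.0, and the genome is IRGSP-1.0. Which tool did which step is not given in the sources used here. The values deposited by the authors were treated as FPKM, although no header states the unit: low values of a gene are whole multiples of a step that depends on the gene. Dividing by that step gave reads, and 255815 of 255815 values of tested IDs were whole within 0.003 reads. Recovered reads served for depth, Poisson intervals (95%, counting error only) and an alternative with voom. Protein and promoter sequences were not used here.

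The 22017 IDs that reached 1 FPKM in 3 or more libraries entered a limma 3.58.1 fit (R 4.3.3) of log2(FPKM + 1), pseudocount 1. Each of the 4 groups had a mean of its own, all 12 libraries shared 1 estimate of the spread (8 residual degrees of freedom), and the empirical Bayes step used a trend. P-values were adjusted by Benjamini-Hochberg across the 22017 IDs, and calls made at an adjusted p under 0.05. Differences on this scale understate those of low genes. The test was also run on simulated data with the same spread for every ID and few changed IDs, unlike these data. The difference of responses was not simulated, so that trial is not used as support here. Groups came from the sample titles. The labels do not say that equal replicate numbers mark a shared batch, so the fit had no block. Libraries with the same number in 2 groups had correlations of -0.191 to 0.241 after group means were removed. Libraries with unlike numbers were not compared, so these values cannot decide whether the numbers pair samples. No 2 libraries of a group were duplicates by the chi-square of their reads.

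The Aux/IAA members, the pathway and marker lists and the tests were chosen with earlier results of these data known. Values in every library were given for the called members with the largest differences (at most 6 per comparison, 4 for the difference of responses) and the 3 most abundant, 16 in all. Of the pathway list, loci among the 2 called ones with the largest difference per family and comparison were shown. Alternatives were pseudocount 0.1, no filter, median-ratio and upper-quartile scaling, a replicate block, voom, fits of 6 libraries, removal of the trend on gene length, and leaving out each library. Leaving out both osmft1 libraries numbered 1 was added after seeing the data. Tables were read with pandas 2.3.3 in Python 3.11.15.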

Additional observations from a re-analysis of the deposited data

Results flagged for a closer look

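The salt response differed between osmft1 and WT, by the interaction term of the limma fit, in 7 of the 25 Aux/IAA genes, all positive, where 13% of all tested IDs were called and 6.92% were called positive. The difference of responses (osmft1 minus WT, log2 scale) was 1.45 for IAA7, 0.72 for IAA10, 2.59 for IAA14, 0.44 for IAA17, 1.43 for IAA20, 0.77 for IAA30 and 1.57 for IAA31. All 7 fell in WT salt. IAA10 lost the call in 11, IAA14 in 11, IAA17 in 15, IAA20 in 9 and IAA30 in 1 of the 20 alternatives run, and IAA7 and IAA31 in none.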

How the results depend on the processing

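Of 55 calls of an Aux/IAA gene in a comparison, 43 held in every alternative run and none changed sign. All 21 calls for salt in WT held. The 12 others each lost the threshold at least once: IAA17 for osmft1 against WT in salt, IAA6, IAA19 and IAA24 in water, IAA24, IAA26 and IAA31 for salt in osmft1, and IAA10, IAA14, IAA17, IAA20 and IAA30 for the difference of responses. For osmft1 against WT in salt, the count of 2 family members was 4 with pseudocount 0.1 and 1 with median-ratio scaling, in the fit of 6 libraries and with both osmft1 libraries numbered 1 left out. In water, 6 became 10 with median-ratio scaling. For the difference of responses, 7 became 3 with no filter and 2 with both osmft1 libraries numbered 1 left out. Leaving out each library gave 1 to 4 in salt, 3 to 9 in water, 18 to 19 for salt in osmft1, 21 to 22 for salt in WT and 3 to 10 for the difference of responses. The count in salt was 4 without WT water library 1 or 2. The count in water was 3 without osmft1 water library 2 or WT water library 3. The count for the difference of responses was 3 without osmft1 salt library 3, WT salt library 2, osmft1 water library 1 or 2, or WT water library 2 or 3, and 4 without osmft1 salt or WT salt library 1. The causes were not tested. The replicate number as a block gave 3, 5, 19, 21 and 6 in the order of the previous ranges, and lost IAA24 in water (limma adjusted p = 0.0526) and IAA17 for the difference of responses (adjusted p = 0.0574). Whether equal numbers mark a shared batch is not known, so which of the 2 fits is the better cannot be told. Over all tested IDs, the calls for osmft1 against WT in salt, 1199 as reported, were 729 with median-ratio scaling, 330 in the fit of 6 libraries and 655 with both osmft1 libraries numbered 1 left out. Those in water, 6703 as reported, were 3060 with both left out. Those for the difference of responses, 2872 as reported, were 1845 with the length trend removed, 1247 with no filter and 317 with both left out. Voom on recovered reads, with no pseudocount of 1, put the fall of IAA14 in WT salt at -7.02 and its difference of responses at 4.08. Depth limits IAA2, IAA4, IAA6, IAA8, IAA14 and IAA23, with under 10 reads in at least 1 library.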
